A study of Mus musculus with 24 samples.

Results

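GABAergic interneuron markers were examined in the hippocampus of newborn mice as 10 genes: Gad1, Gad2, Pvalb, Sst, Vip, Npy, Cck, Reln, Lhx6 and Calb2. The members were chosen by name, as every non-control array probe whose gene name was one of these, which gave 13 probes for 10 of the 36163 gene names on the array. Hippocampal RNA of 15 C57BL/6 pups, labelled male and killed on postnatal day (P) 9, was measured on 1-colour Agilent arrays, 5 per group. Con pups were untreated and minimally handled. From P5 the MS2 pups received morphine at 2 mg/kg and the MS5 pups 5 mg/kg, injected under the skin, and both groups were also separated from the dam each day and exposed to brief nitrogen apnea. Each contrast with Con therefore spans morphine and the stress protocol, whereas by protocol MS5 and MS2 differ in dose alone. The arrays of MS5 and MS2 also differed in slide and in marker levels, as given below. The right and left hippocampi of a pup were pooled, the dissected tissue holds every cell type of the region, and nothing in the labels tells which pups were littermates.

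GABAergic interneurons are the inhibitory nerve cells of the hippocampus. They make GABA from glutamate with the glutamate decarboxylases GAD67 (Gad1) and GAD65 (Gad2), and are divided into classes by the calcium-binding proteins parvalbumin (Pvalb) and calretinin (Calb2) and by the peptides somatostatin (Sst), vasoactive intestinal peptide (Vip), neuropeptide Y (Npy) and cholecystokinin (Cck). Lhx6 is a transcription factor of interneurons born in the medial ganglionic eminence, among them the parvalbumin and somatostatin classes. Reelin (Reln) is a secreted protein of Cajal-Retzius cells early in life and of interneurons later. Parvalbumin appears late in development, and Cck is made by pyramidal cells as well as by interneurons.

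Promoter windows of 5 members are shown because the first 4 rose and fell together, or in opposition, from pup to pup, and because Sst carries a textbook cyclic AMP response element. Each window holds the 250 bases before the RefSeq start site (GRCm38.p6), printed on the gene's strand, and capitals mark 4 motifs searched on both strands. These are the cyclic AMP response element TGACGTCA, its shorter form TGACG (which lies within the full element), the TATA box as TATAAA, and the homeodomain core, spelled TAATTA. The windows are Gad1 at chr2:70561879-70562128 (plus), Gad2 at chr2:22622077-22622326 (plus), Pvalb at chr15:78206401-78206650 (minus, the more upstream of 2 start sites), Vip at chr10:5638968-5639217 (plus) and Sst at chr16:23890845-23891094 (minus).
Gad1: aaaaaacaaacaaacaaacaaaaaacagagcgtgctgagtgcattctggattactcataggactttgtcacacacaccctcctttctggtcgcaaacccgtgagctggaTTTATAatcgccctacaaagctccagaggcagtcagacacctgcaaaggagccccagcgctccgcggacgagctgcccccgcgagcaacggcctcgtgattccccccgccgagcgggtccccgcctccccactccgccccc
Gad2: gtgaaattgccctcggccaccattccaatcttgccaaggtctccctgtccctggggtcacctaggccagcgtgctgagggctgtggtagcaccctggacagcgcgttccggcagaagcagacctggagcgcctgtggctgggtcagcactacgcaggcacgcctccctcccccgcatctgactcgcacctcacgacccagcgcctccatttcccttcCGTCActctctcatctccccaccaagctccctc
Pvalb: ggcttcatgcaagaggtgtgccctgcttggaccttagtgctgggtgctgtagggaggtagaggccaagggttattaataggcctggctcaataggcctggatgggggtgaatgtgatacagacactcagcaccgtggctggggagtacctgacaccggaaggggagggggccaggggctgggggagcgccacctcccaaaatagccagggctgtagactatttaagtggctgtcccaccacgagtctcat
Vip: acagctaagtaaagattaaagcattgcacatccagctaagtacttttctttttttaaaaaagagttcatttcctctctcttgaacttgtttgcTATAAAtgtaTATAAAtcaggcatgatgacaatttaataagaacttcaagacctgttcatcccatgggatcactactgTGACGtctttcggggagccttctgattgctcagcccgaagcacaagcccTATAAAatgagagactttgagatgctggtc
Sst: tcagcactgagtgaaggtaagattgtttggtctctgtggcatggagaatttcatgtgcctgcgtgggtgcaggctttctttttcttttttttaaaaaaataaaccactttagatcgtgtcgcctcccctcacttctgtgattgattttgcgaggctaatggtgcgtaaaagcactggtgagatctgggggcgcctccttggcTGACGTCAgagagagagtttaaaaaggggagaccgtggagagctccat
Promoter windows were matched for 9 members, with 12 start sites in all. Of these members 4 held TGACG (Gad2, Sst, Vip and Cck), which was in 17.8% of all 32851 windows of this length, and 2 held TATAAA (Gad1 and Vip), which was in 12.4%. The Gad1 match lay at -141 on the opposite strand, and the Vip matches at -157, -147 and -30. Whether any match works as a TATA box was not tested. The full TGACGTCA was in the Sst window, with its first base at position -48 from the start site, and in 1.55% of all windows. The homeodomain core was in 0 of the 12 windows, against 4.84% of all. The Pvalb windows held 0 of the 4 motifs, so none was shared by Gad1, Gad2, Pvalb and Vip.

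On all 15 arrays 12 of the 13 member probes were well above background, so each member gene had at least 1 detected probe in every pup. The exception was 1 of the 3 Lhx6 probes. Where a gene had several probes (Pvalb with 2, Lhx6 with 3), the probe with the highest mean represented it, and levels are not compared between probes. MS2 replicate 5 was the dimmest array, with a median spot signal of 51.0 and 64.1% of its spots well above background, against 100.4 to 127.9 and 69.4% to 76.3% on the 14 others. Slide 1 held 3 Con, 3 MS2 and 2 MS5 arrays, and slide 2 held 2, 2 and 3. All levels are log2 values after background adjustment and quantile normalization.

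A pair of arrays went against their labels. MS2 replicate 4 carried the hippocampal principal neuron list (14 genes) at a mean of 10.40, where the other MS2 arrays lay at 12.13 to 12.31, and the hypothalamus and thalamus list (18 genes, 14 of them well above background on every array) at 10.13, where Con arrays lay at 8.06 to 8.49. Its level of Pmch, the melanin-concentrating hormone precursor of the lateral hypothalamus, was 13.33 against 5.99 to 7.55 on the 14 other arrays, and its Camk2a, a kinase abundant in excitatory forebrain neurons, was 9.07 against 11.62 to 12.19. Slc17a6, like Camk2a in the principal neuron list, went the other way there, at 14.87 against 11.61 to 12.75 on the 14 other arrays. MS5 replicate 9, labelled male, carried Xist, the RNA of the inactive X chromosome, at 11.34 against 5.89 to 6.08 on the other arrays. Pmch, Camk2a, Slc17a6 and Xist were chosen after their values were seen. In addition, the list of striatum and amygdala markers (9 genes, all detected on every array) was high, between 10.69 and 11.80, on Con replicate 19, MS2 replicate 5 and MS5 replicates 8, 12 and 14, and at 8.64 to 9.59 on the other 10 arrays. The part these differences play in the member results was not tested.

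No member passed a limma test between groups. The two-sided exact permutation p, not adjusted over members, was under 0.05 for Sst alone, in MS5 versus Con (0.040). A call needed a change above 1.5-fold together with a limma p below 0.05 before adjustment. Of the 10 member genes 0 met it in MS2 versus Con, as did 0.0233% of all 55681 probes, and 0 met it in MS5 versus Con, as did 0.228% of all. In MS5 versus MS2 (0.129% of all probes) and in both morphine-stress groups versus Con (0.0539%) the counts were also 0. With no limit on fold change the counts were 0 in each of these contrasts too, where 4.17%, 3.9%, 3.97% and 4.13% of all probes passed, and the members' smallest adjusted p in limma was 0.970. In MS2 versus Con 7 of the 10 members had a higher mean and 3 a lower one, with a median log2 fold change of 0.12 beside -0.0049 over all genes. Without MS2 replicate 4 the median was 0.036, with Gad1, Gad2 and Pvalb turned lower and Vip, Cck and Reln turned higher. Both medians include the bright Lhx6 probe, whose level is not taken for Lhx6 alone; over the 9 other members they were 0.096 and 0.017. In MS5 versus Con 6 were higher and 4 lower, with a median of 0.19 beside -0.00088. The group ranges overlapped for every member in each of the 4 contrasts, where 0.702%, 0.828%, 0.621% and 0.0413% of all probes did not overlap.

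**Figure D1:**
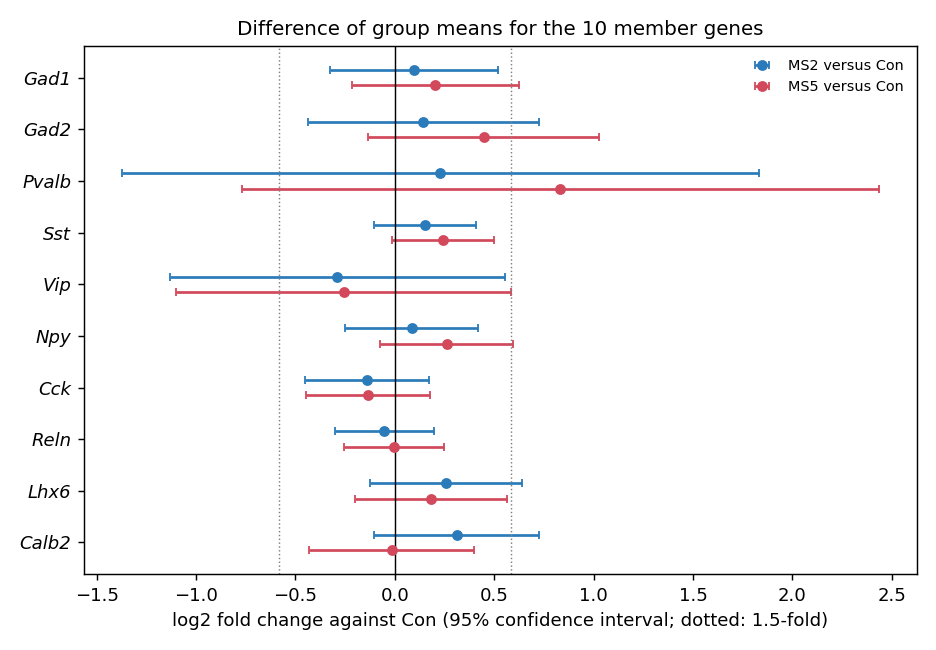
Difference of group means (log2) from Con for the 10 member genes, MS2 in blue and MS5 in red, with 95% confidence intervals from limma; dotted lines mark 1.5-fold. Every interval includes 0, the widest being that of Pvalb, from -0.77 to 2.43 in MS5 versus Con.

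**Figure D2:**
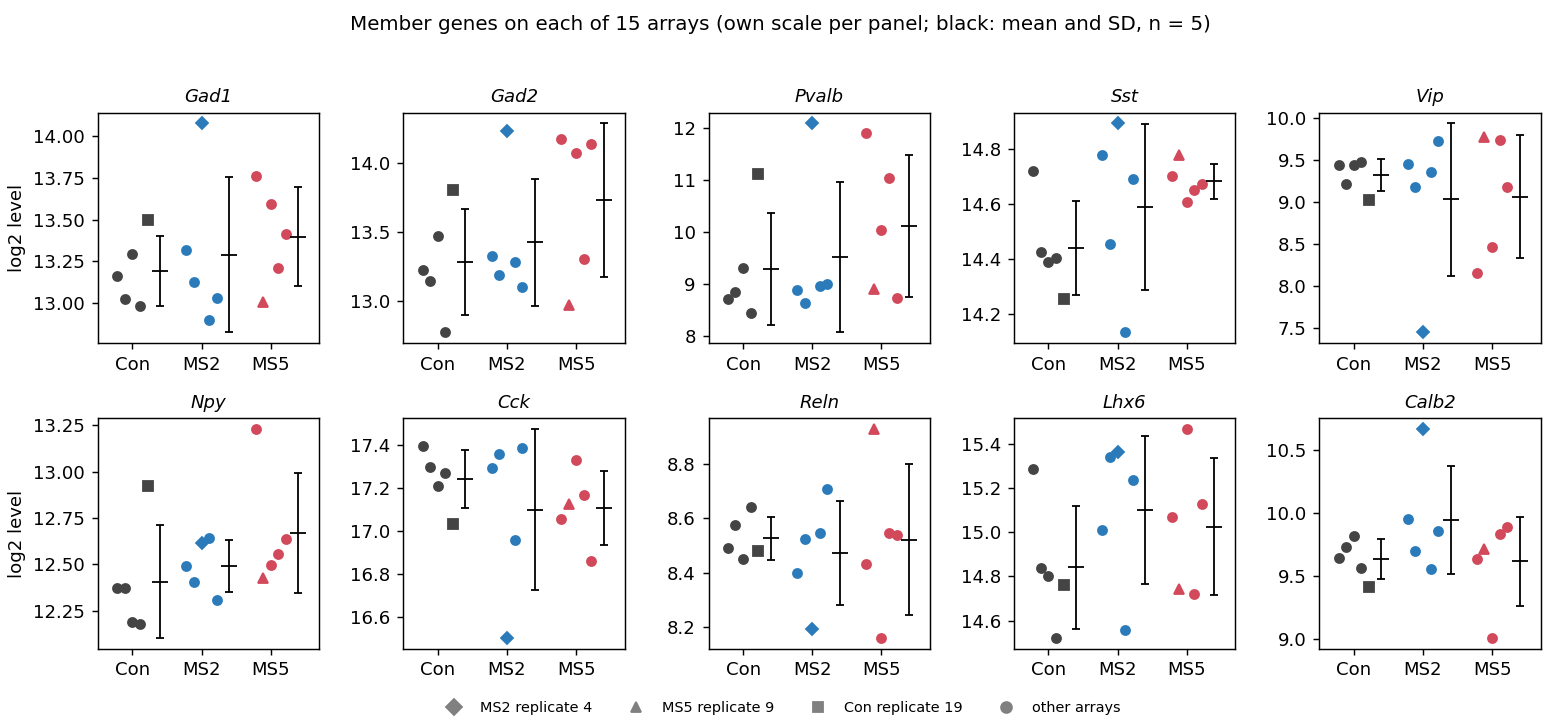
Log2 level of each member on each of 15 arrays, 5 per group, 1 panel per gene with its own scale; black marks give the mean and SD. MS2 replicate 4 (diamond) is the highest MS2 array for Gad1, Gad2, Pvalb, Sst, Lhx6 (bright probe) and Calb2 and the lowest for Vip, Cck and Reln.

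In the sentences that follow, values on single arrays are given for Con replicates 15, 16, 17, 18 and 19, for MS2 replicates 1, 3, 4, 5 and 7, and for MS5 replicates 8, 9, 12, 13 and 14, in that order.

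The enzymes of GABA synthesis had their highest mean in MS5. The range of the group means was below the SD pooled over the groups, at 0.45 against 0.47 for Gad2 and 0.20 against 0.34 for Gad1. For Gad2 this range was above the SD of Con alone. Gad2 (GAD65, which supplies GABA at nerve terminals; probe at chr2:22549095-22549154, mm9) stood at 13.22, 13.14, 13.47, 12.77 and 13.80 in Con. It stood at 13.32, 13.19, 14.23, 13.28 and 13.10 in MS2, and at 14.17, 12.97, 14.07, 13.30 and 14.13 in MS5. MS5 replicates 8, 12 and 14 lay above every Con array, while replicates 9 and 13 lay inside the Con range. The mean was 13.28 ± 0.38 in Con, 13.42 ± 0.46 in MS2 and 13.73 ± 0.56 in MS5 (SD, n = 5). The log2 fold change in MS5 versus Con was 0.45 with a 95% interval of -0.13 to 1.03 (limma unadjusted p = 0.121, adjusted p = 1.00, exact permutation p = 0.175). With 1 array left out the fold change lay between 0.32 (without Con replicate 18) and 0.64 (without MS5 replicate 9, the array with Xist). Only the latter was past 1.5-fold with a limma unadjusted p under 0.05 (0.026, adjusted p = 1.00), and without MS5 replicates 8, 12 or 14 in turn it was 0.34, 0.36 and 0.35. Within slide 1 the difference was 0.58 and within slide 2 it was 0.25. The 3 MS5 arrays with the highest Gad2 were also the 3 MS5 arrays with the highest striatum and amygdala markers, at 11.80, 10.76 and 10.69, against 8.80 and 9.30 on the other MS5 arrays.

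Gad1 (GAD67, which makes most of the GABA of the cell body; chr2:70439699-70439758, mm9) stood at 13.16, 13.03, 13.30, 12.98 and 13.50 in Con. It stood at 13.32, 13.13, 14.08, 12.90 and 13.03 in MS2, and at 13.76, 13.01, 13.59, 13.21 and 13.42 in MS5. The groups overlapped, with 2 MS5 arrays above all Con arrays, and the log2 fold change in MS5 versus Con was 0.20 (-0.22 to 0.63, limma unadjusted p = 0.318, exact permutation p = 0.254). In MS2 versus Con it was 0.10 with MS2 replicate 4 and -0.10 without it, and for Gad2 it was 0.14 and -0.06.

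Parvalbumin, the marker of fast-spiking basket cells, varied more between pups than any other member. Pvalb (chr15:78021951-78022010, mm9) stood at 8.70, 8.84, 9.31, 8.44 and 11.11 in Con. It stood at 8.89, 8.63, 12.09, 8.96 and 8.99 in MS2, and at 11.89, 8.89, 10.03, 11.04 and 8.72 in MS5. High arrays occurred in every group: Con replicate 19, MS2 replicate 4 and MS5 replicates 8, 12 and 13 lay at 10.03 or above, and the other 10 arrays at 9.31 or below. The log2 fold change in MS5 versus Con was 0.83 (-0.77 to 2.43, limma unadjusted p = 0.285, exact permutation p = 0.302), with 0.39 without MS5 replicate 8 and 1.29 without Con replicate 19. In MS2 versus Con it was 0.23 with MS2 replicate 4 and -0.42 without it. The second Pvalb probe (chr15:78021549-78021608) followed the first over the 15 arrays with r = 0.99 and gave 0.82 in MS5 versus Con.

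The Pvalb difference turned its direction between slides. Within slide 1, where both MS5 arrays (replicates 8 and 13) were high and the 3 Con arrays low, it was 2.65 (SE 0.29, limma unadjusted p = 1.2e-05, adjusted p = 0.030). Within slide 2, which held the high Con replicate 19 and the low MS5 replicates 9 and 14, it was -0.76 (SE 1.07, limma unadjusted p = 0.501). With the slide as a block the value was 0.79 (limma unadjusted p = 0.330). The oligodendrocyte list (10 genes, all detected) was high on the same arrays: it stood at 12.70 on Con replicate 19, 12.76 on MS2 replicate 4 and 12.86 on MS5 replicate 8, where the lowest arrays of the groups stood at 11.02, 11.39 and 11.10. Its part in the Pvalb values was not tested.

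Of the peptide genes, Sst (chr16:23889776-23889835, mm9) came closest to a difference. This gene, which marks dendrite-targeting interneurons, stood at 14.72, 14.43, 14.39, 14.40 and 14.25 in Con. It stood at 14.78, 14.46, 14.90, 14.13 and 14.69 in MS2, and at 14.70, 14.78, 14.61, 14.65 and 14.67 in MS5. The MS5 arrays were close together and lay above 4 of the 5 Con arrays, with replicate 15 the Con array among them. The mean was 14.44 ± 0.17 in Con, 14.59 ± 0.30 in MS2 and 14.68 ± 0.06 in MS5 (SD, n = 5), and the log2 fold change in MS5 versus Con was 0.24 (-0.01 to 0.50), which is 1.18-fold. Limma gave an unadjusted p of 0.061 and an adjusted p of 1.00, and the two-sided exact permutation test gave 0.040, where the smallest possible is 0.00794. The limma p before adjustment was 0.109 with the spots of the probe averaged (0.20), 0.128 with a background offset of 0 (0.20) and 0.132 with the processed signal (0.19). It was under 0.05 in 4 alternatives: with array weights (0.024), with the slide as a block (0.04998), with the compared groups alone (0.0085) and without Con replicate 15 (0.020). The fold change lay between 0.17 and 0.35 over all alternatives and under 1.5-fold in each. In MS2 versus Con it was 0.15 (-0.11 to 0.41, limma unadjusted p = 0.229), 0.27 without MS2 replicate 5, the dimmest array (limma unadjusted p = 0.013), and 0.074 without MS2 replicate 4 (limma unadjusted p = 0.527).

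Sst was also the member measured most often, with 10 spots per array, of which the deposited table holds the first. The SD between the spots of an array was 0.094 to 0.181 (pooled 0.149), beside an SD of 0.17 between Con pups. Averaged over the 10 spots, the level was 14.59 ± 0.16 in Con, 14.72 ± 0.30 in MS2 and 14.80 ± 0.09 in MS5 (SD, n = 5), and for MS5 versus Con the exact permutation p was 0.040 and the limma unadjusted p 0.109.

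Npy (chr6:49773743-49777505, mm9, a 60-base probe that spans an intron) encodes a peptide of neurogliaform, ivy and many Sst cells. It stood at 12.37, 12.37, 12.19, 12.18 and 12.92 in Con, at 12.49, 12.41, 12.62, 12.64 and 12.31 in MS2, and at 13.23, 12.43, 12.50, 12.56 and 12.64 in MS5. Con replicate 19 and MS5 replicate 8 were the highest arrays. The log2 fold change was 0.26 in MS5 (-0.07 to 0.60, limma unadjusted p = 0.116, exact permutation p = 0.246) and 0.08 in MS2. Without Con replicate 19 the MS5 value was 0.39 (limma unadjusted p = 0.013), and without MS5 replicate 8 it was 0.12 (limma unadjusted p = 0.363). It too turned its direction between slides, with 0.65 within slide 1 (limma unadjusted p = 0.0046, adjusted p = 0.402), which is past 1.5-fold, and -0.13 within slide 2.

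Vip, the peptide of interneurons that inhibit other interneurons, was low on several arrays where Gad1 and Gad2 were high. The probe (chr10:4699238-4699297, mm9) stood at 9.44, 9.22, 9.44, 9.47 and 9.03 in Con. It stood at 9.45, 9.18, 7.44, 9.36 and 9.73 in MS2, and at 8.15, 9.78, 8.46, 9.74 and 9.19 in MS5. The SD was 0.19 in Con, 0.91 in MS2 and 0.74 in MS5 (n = 5); this spread was not tested. The log2 fold change was -0.26 in MS5 (-1.10 to 0.59, limma unadjusted p = 0.524, exact permutation p = 0.484) and -0.03 without MS5 replicate 8. In MS2 it was -0.29 with MS2 replicate 4 and 0.11 without it. The 3 lowest values, 7.44, 8.15 and 8.46, belonged to MS2 replicate 4 and MS5 replicates 8 and 12, which also had the 3 highest values of Gad1.

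Cck, abundant in pyramidal cells and in basket cells that surround them, was at 17.39, 17.30, 17.21, 17.27 and 17.03 in Con. It was at 17.29, 17.36, 16.50, 16.96 and 17.39 in MS2, and at 17.06, 17.12, 17.33, 17.17 and 16.86 in MS5 (probe at chr9:121398943-121399002, mm9). MS2 replicate 4 was the lowest of all, and the log2 fold change was -0.14 in MS2 (0.01 without that array) and -0.13 in MS5 (-0.45 to 0.18, limma unadjusted p = 0.375).

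Calretinin and reelin had near-equal means in Con and MS5. Calb2 (chr8:112678555-112678614, mm9), which marks interneuron-selective and early Cajal-Retzius cells, stood at 9.64, 9.73, 9.82, 9.56 and 9.41 in Con. It stood at 9.95, 9.69, 10.67, 9.55 and 9.85 in MS2, and at 9.64, 9.72, 9.01, 9.83 and 9.89 in MS5. The MS2 log2 fold change was 0.31 (-0.10 to 0.73, limma unadjusted p = 0.130), or 0.13 without MS2 replicate 4 (limma unadjusted p = 0.404), and that of MS5 -0.02. MS2 replicate 4 was the highest array, as it was for the mean of the list of Cajal-Retzius markers (7 genes), at 9.37 against 8.13 to 8.30 on the other MS2 arrays. Not every gene of that list was high there: Trp73 stood at 8.52 ± 0.08 in MS2 against 8.71 ± 0.14 in Con (SD, n = 5). Barhl2 was well above background on none of the arrays. Reln, also made by Cajal-Retzius cells, was at its lowest MS2 value on MS2 replicate 4, 8.19. Reln (chr5:21404915-21404974, mm9) lay between 8.45 and 8.64 in Con, 8.19 and 8.71 in MS2, and 8.16 and 8.93 in MS5. Its highest array was MS5 replicate 9 and its lowest MS5 replicate 12. The log2 fold change was -0.05 in MS2 and -0.0047 in MS5, with a 95% interval of -0.25 to 0.25 for the latter.

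The Lhx6 probes did not follow each other. The bright probe at chr2:35937644-35937703 (mm9) stood at 14.52 to 15.29 in Con, 14.56 to 15.36 in MS2 and 14.72 to 15.47 in MS5. The neighbouring probe at chr2:35937470-35937529 stood at 9.26 to 9.67 in Con, 7.12 to 9.39 in MS2 and 9.30 to 10.13 in MS5, with MS2 replicate 4 the lowest array, where the bright probe was at its highest in MS2. The probe at chr2:35958379-35958438 stood at 5.89 to 6.08 and was well above background on 0 of 15 arrays. Over the 15 arrays the detected probes correlated with r = -0.26, and over the 14 arrays without MS2 replicate 4 with r = 0.18. The sequences of the undetected probe, in full, and of the last 30 bases of the bright probe are shown because of this difference, with the longest run of alternating A and C in capitals where it is at least 16 bases.
Lhx6 undetected probe: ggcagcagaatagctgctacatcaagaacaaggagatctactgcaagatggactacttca
Lhx6 bright probe, bases 31 to 60: aACACACACACACACACACACACACACACA
The bright Lhx6 probe ended in 29 bases of alternating A and C. Of 36283 probes detected on every array, 34 had such a run of 16 bases or more, 0.0937% of them. The bright probe's level correlated above 0.8 with 29 of the other 33 (median r = 0.90), against 0.511% of the 36193 probes whose longest run was under 10 bases (median r = -0.01). The neighbouring Lhx6 probe had a median r of -0.15 with the same 33 and exceeded 0.8 with 0. The 10 probes most like the bright one, of any gene, all had runs of 14 to 29 bases. What the bright probe binds was not tested, and its level is not taken for that of Lhx6 alone. Its log2 fold change was 0.26 in MS2 (-0.12 to 0.64) and 0.18 in MS5 (-0.20 to 0.57). The neighbouring probe gave -0.52 in MS2 (-1.28 to 0.23, limma unadjusted p = 0.16), or -0.08 over the 4 MS2 arrays without replicate 4, and 0.18 in MS5 (-0.58 to 0.93).

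**Figure D3:**
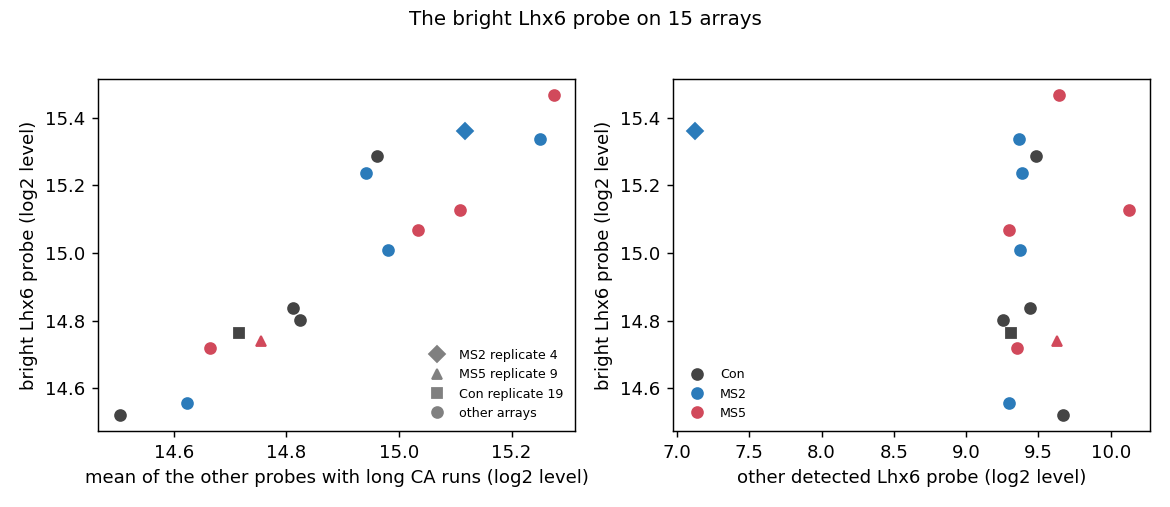
Log2 level of the bright Lhx6 probe on 15 arrays (y axes) beside the mean level of the 33 other probes with CA runs of 16 bases or more (left) and beside the neighbouring detected Lhx6 probe (right); 1 point per array, coloured by group. The bright probe rises with the CA-run probes, and the neighbouring probe is lowest on MS2 replicate 4 (diamond), at 7.12.

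Several members rose and fell together from pup to pup. Of the 45 member pairs, 12 had a Pearson correlation over the 15 arrays with an adjusted permutation p under 0.05 (100000 resamples, two-sided, Benjamini-Hochberg over the 45 pairs), 6 positive and 6 negative, and 8 of the 12 also passed with Spearman's rho. The positive pairs joined Gad1, Gad2 and Pvalb with each other, Npy with Gad2 and with Pvalb, and Vip with Reln. The negative pairs set Vip against Gad1, Gad2 and Pvalb, Reln against Gad1 and Gad2, and Cck against Gad2. Npy did not pass against Vip, Reln or Cck (adjusted permutation p = 0.103, 0.469 and 0.143). Sst, Calb2 and the bright Lhx6 probe were in none of the 12. The neighbouring Lhx6 probe was not paired with the other members.

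The strongest was Gad1 with Gad2 (r = 0.90, adjusted permutation p = 0.00090; rho = 0.91, adjusted permutation p = 0.00045). It was 0.87 without the 2 arrays farthest from the median of Gad1, 0.90 without MS2 replicate 4, 0.90 for deviations from the group means, 0.98 within slide 1 (8 arrays) and 0.88 within slide 2 (7 arrays). Vip ran against both: with Gad1 r was -0.89 (adjusted permutation p = 0.0011; rho = -0.68, adjusted permutation p = 0.040) and -0.79 without MS2 replicate 4. With Gad2 it was -0.80 (adjusted permutation p = 0.0013; rho = -0.73, adjusted permutation p = 0.033), -0.78 without that array, and -0.71 without the 2 farthest.

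Reln rose with Vip (r = 0.74, adjusted permutation p = 0.010; rho = 0.71, adjusted permutation p = 0.034). It ran against Gad1 (r = -0.75, adjusted permutation p = 0.010; rho = -0.83, adjusted permutation p = 0.00555) and Gad2 (r = -0.71, adjusted permutation p = 0.010; rho = -0.82, adjusted permutation p = 0.00555). Npy rose with Gad2 (r = 0.67, adjusted permutation p = 0.021; rho = 0.69, adjusted permutation p = 0.034), with 0.87 within slide 1 and 0.44 within slide 2.

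The relations of Pvalb depended more on single arrays. With Gad1 r was 0.81 (adjusted permutation p = 0.0081; rho = 0.64, adjusted permutation p = 0.057) and 0.55 without the 2 arrays farthest from the median of Gad1. With Gad2 it was 0.69 (adjusted permutation p = 0.021; rho = 0.66, adjusted permutation p = 0.048) and 0.43. With Vip it was -0.71 (adjusted permutation p = 0.021; rho = -0.37, adjusted permutation p = 0.325) and -0.21, so that this relation rests on those arrays. With Npy it was 0.71 (adjusted permutation p = 0.021; rho = 0.58, adjusted permutation p = 0.098) and 0.60. Gad2 against Cck, the weakest of the 12, was -0.62 (adjusted permutation p = 0.041; rho = -0.54, adjusted permutation p = 0.105), -0.44 without the 2 farthest arrays and -0.49 without MS2 replicate 4. All 12 pairs kept their sign in each of these recalculations, within each slide and with the scanner's processed signal.

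**Figure D4:**
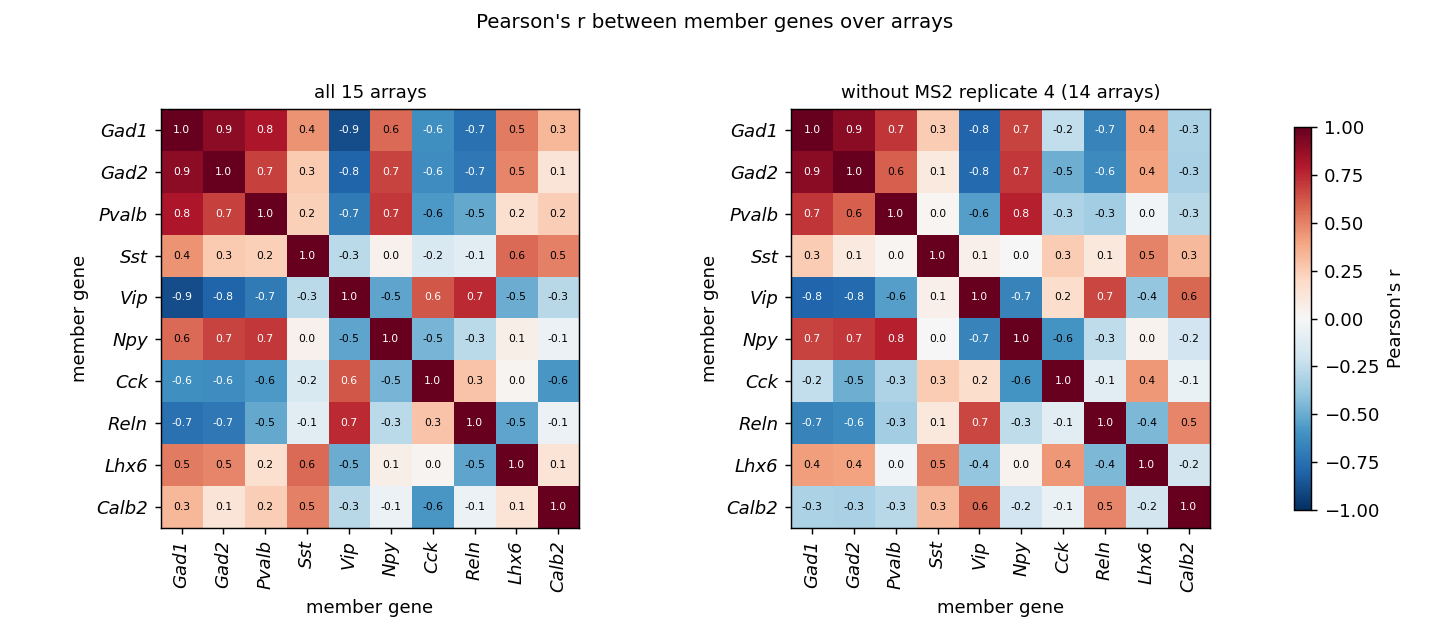
Pearson's r between the 10 member genes (Lhx6 by its bright probe) over all 15 arrays (left) and over 14 arrays without MS2 replicate 4 (right). Colours run from -1 in blue to 1 in red. Gad1 and Gad2 run against Vip and Reln in both, while Npy with Reln is at -0.27 and -0.25. Calb2 turns from 0.34 to -0.32 with Gad1 when MS2 replicate 4 is left out.

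The same arrays that were high in Gad1, Gad2 and Pvalb were high in markers of neighbouring regions or of oligodendrocytes. Over the 15 arrays the hypothalamus and thalamus list had r = 0.90 with Gad1, 0.87 with Gad2 and -0.90 with Vip. Without MS2 replicate 4 these were 0.81, 0.93 and -0.79. With Sst (0.42), the bright Lhx6 probe (0.46) and Calb2 (0.46) r was smaller over the 15 arrays. Pvalb had r = 0.90 with the oligodendrocyte list, and none of these correlations with lists was tested. Con replicate 19 was the highest Con array for Gad1, Gad2, Pvalb and Npy, and its striatum and amygdala markers stood at 11.42, where the other Con arrays lay between 8.64 and 9.18. MS5 replicate 8 was the highest MS5 array for the same 4 genes, with 11.80 for these markers and 9.28 for the hypothalamus and thalamus markers. On MS2 replicate 5, with striatum and amygdala markers at 11.36, Npy was the highest of its group at 12.64, while Gad1 was the lowest of its group at 12.90 and Gad2, at 13.28, and Pvalb, at 8.96, lay inside it. In bulk tissue fewer cells of a type and less RNA per cell cannot be told apart, and neither can RNA of a neighbouring region that holds the same cells, such as the many GABAergic neurons of the striatum.

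**Figure D5:**
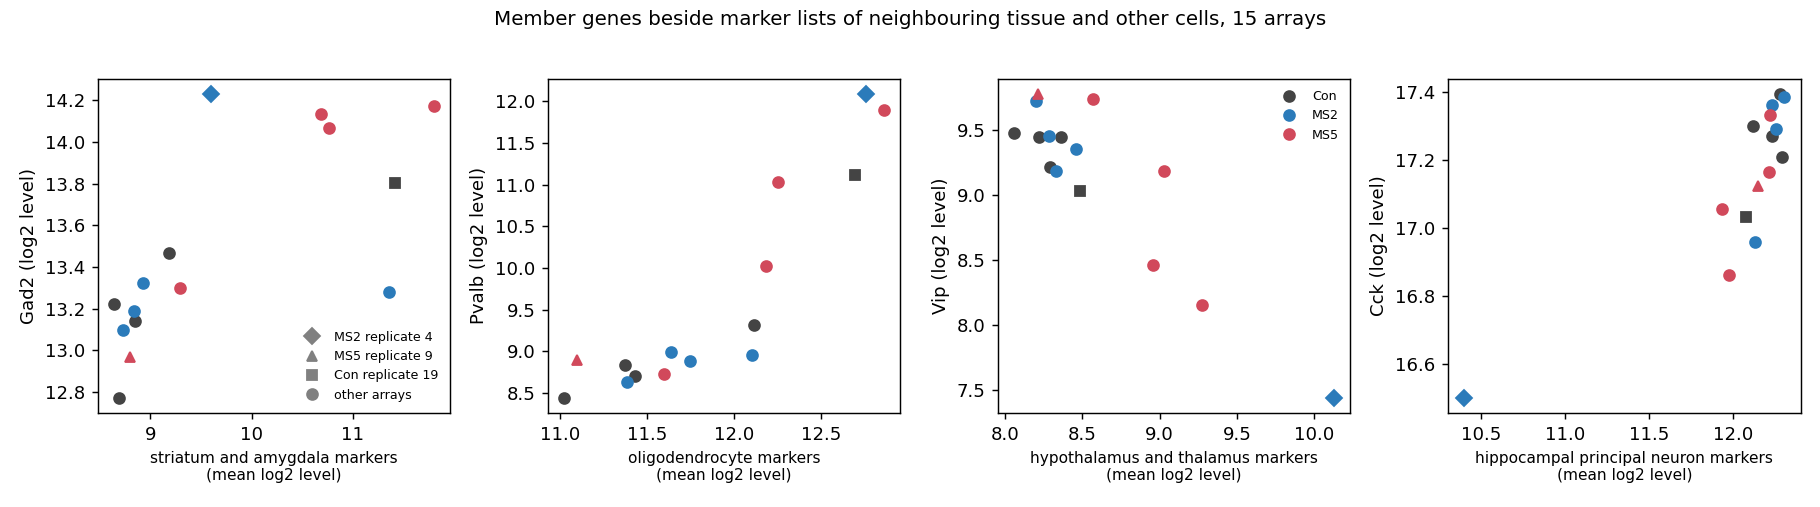
Log2 level of Gad2, Pvalb, Vip and Cck on 15 arrays beside the mean log2 level of a marker list on the same array, 1 point per array, coloured by group. Gad2 is at 13.80 or above on 4 of the 5 arrays with striatum and amygdala markers at 10.69 or above, and MS2 replicate 4 (diamond) is apart for Vip and Cck, at 7.44 and 16.50.

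The genes most like each member over the 15 arrays (Pearson's r, among 23216 named probes detected on every array, a description without a test) were in part genes of other cells. For Gad1 they were Olig1, an oligodendrocyte lineage factor (r = 0.95), the channel gene Hcn2 (0.94) and the endothelin receptor gene Ednrb (0.94). For Gad2 they were Zfp503, a transcription factor of the developing striatum (0.96), Ecel1 (0.94) and Slc5a7, the choline transporter of cholinergic neurons (0.93). For Pvalb they were Olig2 (0.95), Frem3 (0.95) and the myelin gene Mal (0.95). For Vip they were Nov (0.98), the chromatin organizer gene Satb1 (0.97) and Ly6g6e (0.97), and for Cck Layn (0.95), Eya4 (0.95) and Lrp11 (0.95).

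For Npy they were Rgs2 (0.92), Casq2 (0.90) and Pde7b (0.89), and for Sst Magi3 (0.92), 4930590A17Rik (0.92) and Ncam2 (0.91). For Reln they were Tmem35 (0.87), Smyd3 (0.86) and Zfp341 (0.86), and for Calb2 Ppp4r1l-ps (0.94), Itga3 (0.90) and Exoc7 (0.90). For the bright Lhx6 probe they were C030007I01Rik (0.98), Fam107a (0.97) and the mu opioid receptor gene Oprm1 (0.96), each measured there by a probe with a CA run of 18 to 29 bases, and for the neighbouring Lhx6 probe Gm9804 (0.95), 9130022E09 (0.94) and Fam126a (0.94).

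Few genes around the members passed a test. Of all probes, 2.05% were higher and 2.12% lower in MS2 versus Con at an unadjusted limma p under 0.05, 1.47% and 2.43% in MS5 versus Con, 1.72% and 2.25% in MS5 versus MS2, and 1.89% and 2.24% in both morphine-stress groups versus Con. Of 11 genes of GABA transport and breakdown, 0 had a limma unadjusted p under 0.05 in MS2 versus Con or MS5 versus Con, and the list median was 0.06 in each. Of 24 transcription and developmental genes of interneurons 0 passed, with medians of -0.13 in MS2 and -0.06 in MS5. Of 24 other subtype markers 0 passed, with medians of 0.02 and 0.02. Of 15 receptors of the member peptides and of reelin, 1 passed: Npy5r, a neuropeptide Y receptor, was 8.27 ± 0.14 in Con and 8.52 ± 0.08 in MS5 (SD, n = 5), a log2 difference of 0.24 (limma unadjusted p = 0.0043, adjusted p = 1.00). Of 7 Cajal-Retzius markers 1 passed, Trp73, with -0.19 in MS2 (limma unadjusted p = 0.039, adjusted p = 0.970). These counts are for MS2 versus Con and MS5 versus Con. In MS5 versus MS2 the same p was met by 1 subtype marker (lower), 1 receptor (higher) and 1 Cajal-Retzius marker (lower, past 1.5-fold). In both morphine-stress groups versus Con 0 genes of these lists met it. In each of these lists 0 genes passed the adjusted threshold in any of the 4 contrasts.

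Among the lists of other cells, 0 of 14 principal neuron, 0 of 9 striatum and amygdala, 0 of 8 astrocyte, 0 of 10 oligodendrocyte and 0 of 9 microglia genes passed an unadjusted p of 0.05 in either contrast with Con. The principal neuron median was -0.55 in MS2 (12 of 14 lower) and -0.16 in MS5 (11 lower). Within MS2 the mean of this list was 10.40 on replicate 4 and 12.13 to 12.31 on the other arrays. Con arrays lay at 12.08 to 12.29, so the low MS2 level was that of 1 array. All 9 striatum and amygdala genes were higher in MS5 (median 0.94) and 6 in MS2 (median 0.08). The astrocyte, oligodendrocyte and microglia medians lay between -0.04 and 0.12. In the choroid plexus list all 12 genes were lower in MS5 versus Con, 11 of them with an unadjusted limma p under 0.05. Of these Folr1 (-2.0), Kcne2 (-1.72), Kcnj13 (-1.56) and Calml4 (-1.49) are named as the largest. In MS5 versus MS2 all 12 genes were lower too, 9 of them with an unadjusted limma p under 0.05. Of the 18 hypothalamus and thalamus genes 16 were higher in MS5 versus Con. An unadjusted limma p under 0.05 was met by 4, Avp (2.53), Trh (1.89), Oxt (1.79) and Sim1 (0.22, well above background on 1 array). It was also met by 2 of 8 endothelial and blood genes, Cdh5 (-0.24) and Kdr (0.23). In each of these lists of other cells 0 genes passed the adjusted threshold. The choroid plexus list lay at 8.71 on MS5 replicate 14 and 9.82 on MS5 replicate 9, against 11.35 to 12.68 on the other arrays; on replicate 14 Gad1, Pvalb and Vip lay inside the Con range and Gad2 above it.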

How the data were processed

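The authors hybridized hippocampal RNA to Agilent arrays and deposited the scanner's intensity per spot (Feature Extraction) and a table of log2 values, background-adjusted with normexp and quantile normalized with Agi4x44PreProcess. This deposited log2 table was used as it stands. Rebuilt from the intensities at an offset of 50 with the first spot of each probe, it differed by at most 5e-09 over 55821 rows. The 9 miR arrays hold no member and were not used.

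R 4.3.3 with limma 3.58.1 compared the 3 groups in 1 fit over 55681 non-control probes (lmFit, eBayes), with Benjamini-Hochberg adjustment over all of them. The steps were tested on simulated data. Calls were past 1.5-fold with unadjusted p under 0.05, as in the study's methods, or adjusted p under 0.05. Exact permutation tests were two-sided. Labels give pups but no litters, so p-values measure the spread between these samples; the number of arrays limits the precision. A spot well above background is the scanner's own call.

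Named were all members, up to 4 genes per list and contrast with Con at an unadjusted p under 0.05, by size, and the 3 genes most like each member. The members and lists were chosen with earlier results of these data known. Alternatives were the scanner's processed signal, other background and probe rules, array weights, the slide as a block or alone, the compared groups alone, and each array left out. Leaving out MS2 replicate 4 with MS5 replicate 9, correlations without MS2 replicate 4, and the neighbouring Lhx6 probe (with and without that array) were chosen after seeing the data. Probe positions are those of the array design (mm9), and promoters are RefSeq's for GRCm38.p6.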

Additional observations from a re-analysis of the deposited data

Results flagged for a closer look

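Of 30 groups of 5 arrays examined (10 members, 3 groups), 6 held an array whose gap to the nearest other exceeded 0.71 of the group's range. For normal values chance flags about 1 in 20 such groups. Members share arrays and several were correlated, so the 30 groups are not independent and the count is not set against that rate. In MS2, replicate 4 stood apart for Gad2 at 14.23 (next 13.32), for Pvalb at 12.09 (next 8.99) and for Vip at 7.44 (next 9.18). For Npy, Con replicate 19 stood apart at 12.92 (next 12.37) and MS5 replicate 8 at 13.23 (next 12.64). For Calb2, MS5 replicate 12 stood apart at 9.01 (next 9.64).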

How the results depend on the processing

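The count of members past 1.5-fold with an unadjusted p under 0.05 was 0 in every contrast under most settings. Within slide 1 it was 2 in MS5 versus Con (Pvalb and Npy), 1 in MS5 versus MS2 and 1 in both morphine-stress groups versus Con (Pvalb in each), and 1 member (Pvalb) passed the adjusted threshold in MS5 versus Con and 1 in MS5 versus MS2. Slide 1 held 2 MS5 arrays. Leaving out 1 array gave 0 to 1 in MS5 versus Con, the 1 being Gad2 without MS5 replicate 9. Without MS2 replicate 4 and MS5 replicate 9 together the count was 1 in MS5 versus Con (Gad2, 0.64) and 2 in MS5 versus MS2 (Gad2 and Pvalb).

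Several signs turned. In MS2 versus Con, array weights gave -0.0023 for Gad1, -0.031 for Gad2, -0.29 for Pvalb, 0.019 for Vip and 0.039 for Cck. Without MS2 replicate 4, alone or with MS5 replicate 9, the values were -0.10, -0.058, -0.42, 0.11 and 0.0082, and 0.017 for Reln. Slide 1 alone gave 0.00054 for Vip, 0.055 for Cck and 0.017 for Reln, and slide 2 alone gave -0.019 for Npy. Lhx6 was -0.081 as the mean of its probes and -0.52 by the neighbouring probe (-0.077 without MS2 replicate 4). With 1 array left out, Gad1 lay between -0.10 and 0.19, Gad2 between -0.058 and 0.27, Pvalb between -0.42 and 0.69, Vip between -0.46 and 0.11, Cck between -0.21 and 0.0082 and Reln between -0.11 and 0.017. In MS5 versus Con, slide 2 alone gave -0.76 for Pvalb, 0.019 for Vip, -0.13 for Npy and 0.017 for Reln. Reln was 0.018 with the processed signal, 0.024 with array weights and 0.0034 with the slide as a block, and Calb2 was 0.0055 with the processed signal, 0.0021 with array weights and 0.059 within slide 1. With 1 array left out, Reln lay between -0.11 and 0.086 and Calb2 between -0.085 and 0.14, while Gad1 (0.11 to 0.30), Gad2 (0.32 to 0.64), Pvalb (0.39 to 1.29), Sst (0.20 to 0.31), Vip (-0.44 to -0.03), Npy (0.12 to 0.39), Cck (-0.19 to -0.072) and Lhx6 (0.072 to 0.29) kept their sign. The causes were not tested.

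By the study's methods, treated pups went back to a home cage that held untreated littermates. The labels do not tell which pups were littermates, so no analysis paired by litter was possible. With 5 arrays per group the interval of Pvalb in each contrast with Con included 1.5-fold in either direction.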
